A study of Mus musculus with 15 samples.

Results

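The 48 genes described here encode proteins of the synaptic vesicle cycle and of regulated secretion. They were chosen by gene symbol, with earlier results of these data known, and all 48 were found among the 32657 features of the count tables, of which 23117 had a count in some library. They fall into 8 classes: 7 vesicle membrane proteins and synapsins, 5 synaptotagmins, 6 SNAREs and complexins, 11 genes of the active zone, priming and Rab3, 2 vesicular glutamate transporters, 4 granins, 10 genes of clathrin, the AP2 adaptor and endocytosis, and 3 subunits of the V-ATPase. RNA-seq had been carried out on the dentate gyrus (DG) of adult mice (8 to 12 weeks old), in 15 libraries and 6 groups, with 3 WT and 2 cKO libraries each for vDG IP, vDG input and dDG input. WT libraries came from Drd3-Cre KI198::Rosa26-fsTRAP mice and cKO libraries from Drd3-Cre KI198::Rosa26-fsTRAP::Htr4-Floxed mice, so that both genotypes carried the Cre driver and the EGFP-L10a ribosome tag. The cKO carried the Htr4-Floxed allele as well, from which Cre removes exon 5 of *Htr4*, the gene of the serotonin receptor 5-HT4R. The study describes a separate cross for each genotype, so effects of the floxed allele, breeding line or litter cannot be told apart from those of exon 5 loss. The IP holds mRNA bound to tagged ribosomes, which translating ribosome affinity purification (TRAP) pulls down from the cells that express Cre. The input holds RNA of the whole dissected tissue. The sample records give each IP as a pool of 3 mice and each input as a pool of 2, while the methods of the study describe 1 male and 1 female mouse per replicate, and no dDG IP was analysed here. The source field of the inputs names cortex, while their titles and brain region fields give vDG or dDG, and the marker levels in a later paragraph bear on this. The driver is a BAC transgene that marks granule cells and hilar mossy cells and, as the study describes it, part of the pyramidal cells in the CA fields as well, so the IP is a mixture of excitatory neurons. Input RNA was purified from homogenates before the IP, so IPs and inputs of the vDG can share animals. The study dissected both dorsal and ventral DG, so vDG and dDG inputs can share animals too. Nothing in the records says which libraries do. The main tests treat libraries as independent, and p-values measure the spread between these libraries.

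A presynaptic terminal fills vesicles with transmitter using the proton gradient set up by the V-ATPase, docks and primes them at the active zone, and fuses them when calcium binds a synaptotagmin and the SNARE proteins zip together. Clathrin, its adaptor AP2 and the GTPase dynamin then cut the vesicle membrane back out of the plasma membrane. Neuropeptides and growth factors follow a second route, in dense core granules whose matrix is built from granins. Granule cells send mossy fibers, among the largest excitatory terminals of the brain, to hilar mossy cells and CA3, and their axons carry many dense core granules.

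5-HT4R couples to Gs and raises cAMP, and the cAMP response element (CRE) is the DNA motif bound by the cAMP-responsive factor CREB, so the palindrome TGACGTCA, which reads the same on both strands, was searched in the RefSeq promoters of the members (GRCm38.p6, 250 bases before to 50 after the start site). A promoter was found for 41 of the 48 members, and 5 of these held the motif (12.2%), against 549 of 27025 genes with a promoter in the table (2.03%). Of 61 genes with a promoter in a wider list of other presynaptic and secretory genes, 3 held it (4.92%). The stretches of all 5 members are shown, of which 3 (*Scg2*, *Chgb* and *Ap2b1*) were among the 10 members called lower in the cKO vDG input and 2 were not. Over all genes called lower there, 8 of 281 with a promoter held the motif (2.85%), against 381 of 11085 genes tested (3.44%). Each stretch runs 5′ to 3′ in the direction of transcription, with the motif in capitals:
Scg2, chr1:79440076-79440105, minus strand: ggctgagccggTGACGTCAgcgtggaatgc
Chgb, chr2:132781559-132781588, plus strand: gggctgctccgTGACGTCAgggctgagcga
Ap2b1, chr11:83302639-83302668, plus strand: gcgcacccagaTGACGTCAggcggcgagat
Cltb, chr13:54611376-54611405, minus strand: ccctcggccgcTGACGTCAccgcattcccg
Syn1, chrX:20921059-20921088, minus strand: caaaggctgacTGACGTCActcactagccc
The motif ended 61 bases before the RefSeq start site in *Scg2*, 65 in *Chgb*, 40 in *Ap2b1*, 14 in *Cltb* and 152 in *Syn1*. In GENCODE M21 the stretch lies within exon 1 of the transcripts Scg2-201 (79439956 to 79440120), Chgb-201 (132781278 to 132781782) and Ap2b1-201 (83302483 to 83302837). The other motifs searched in the same windows were CACGTG, the core of the E-box, which was in 4 members (*Ap2m1*, *Atp6v1a*, *Sv2b* and *Unc13b*; 9.76%, against 8.09% of all genes and 18.0% of the wider list), and that of NRF1, which was in 1 (*Bsn*; 2.44%, against 1.07% and 4.92%). A match is a string of letters in a window and was not tested as a binding site.

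Counts on genes ranged from 19039295 to 30451430 per library. Reads outside genes took 11.3 to 12.9% in the IPs and 15.2 to 18.7% in the inputs, a difference between the fractions whose part in the IP comparisons was not tested. *Htr4* itself was counted at 13.6, 16.0 and 15.9 CPM (counts scaled to library size) in WT and at 29.8 and 26.7 in cKO vDG IPs, and was higher in cKO in the vDG input as well (14.4, 18.6 and 13.8 CPM in WT against 29.3 and 27.5 in cKO). The count covers all exons of the gene while only exon 5 was removed, so it is no check of the deletion, and the genotype is used here as labelled. The defining markers of other cells were lower in the IP as sums but not at 0. In WT, the summed level of 6 astrocyte markers was 112 to 157 CPM in IPs and 757 to 910 CPM in inputs, that of 8 interneuron markers 167 to 196 and 451 to 525 CPM, that of 6 microglia markers 2.86 to 5.67 and 26.2 to 41.5 CPM, and that of 6 oligodendrocyte markers 167 to 205 and 332 to 412 CPM. The 5 markers of immature neurons summed to 76.4 to 133 CPM in WT IPs and 133 to 206 CPM in WT inputs. Single markers such as *Gad1* (-0.28 ± 0.11, FDR = 0.0878) and *Mbp* (-0.31 ± 0.12, FDR = 0.0855) were not called. The 6 granule cell markers summed to 1274 to 1419 CPM in WT IPs, 1026 to 1161 CPM in WT vDG inputs and 1585 to 1604 CPM in WT dDG inputs. The 5 mossy cell markers summed to 195 to 246 CPM in WT IPs and 192 to 227 CPM in WT vDG inputs. Of these 5, 4 had negative values, *Calcrl* was called lower (-1.34, FDR = 0.00227) and none higher. The 6 CA pyramidal cell markers summed to 315 to 405 CPM and 240 to 326 CPM, with 2 called lower (*Mpped1* and *Spink8*) and none higher. *Trhr*, a marker of the ventral DG, lay between 14.7 and 31.5 CPM in the vDG inputs and between 0.118 and 0.718 CPM in the dDG inputs. *Lct*, a marker of the dorsal DG, lay between 30.0 and 48.4 CPM in the vDG inputs and between 128 and 181 CPM in the dDG inputs. Both regions thus matched their titles in direction, though the vDG libraries were not free of the dorsal marker (61.8 to 73.9 CPM in WT vDG IPs).

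The members together took 2.68 to 3.33% of all counts in WT IPs, 2.74 to 3.04% in WT vDG inputs and 1.96 to 2.27% in WT dDG inputs. Levels of different genes were compared as CPM per kilobase of exon. In the WT IP the order was led by *Snap25*, the plasma membrane SNARE, at 1607 CPM per kilobase, followed by *Cplx2* (complexin 2) at 496 and *Vamp2* (synaptobrevin 2) at 445. These 3 led in the same order in the WT dDG input. They were followed in both by *Syn1* and then *Chgb*, the granin chromogranin B, which stood at 242 CPM per kilobase in the WT IP. At the other end, *Syt2*, *Slc17a6* (vesicular glutamate transporter VGLUT2) and *Rims3* had group means of at most 0.248 CPM per kilobase. Between neighbours in the order of the WT IP, 35 of 47 pairs overlapped over their libraries, so most single steps in this order are not separated. The spread within groups was modest, with a median coefficient of variation over the members of 14.4% in WT IPs and 11.6% in WT vDG inputs.

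**Figure D1:**
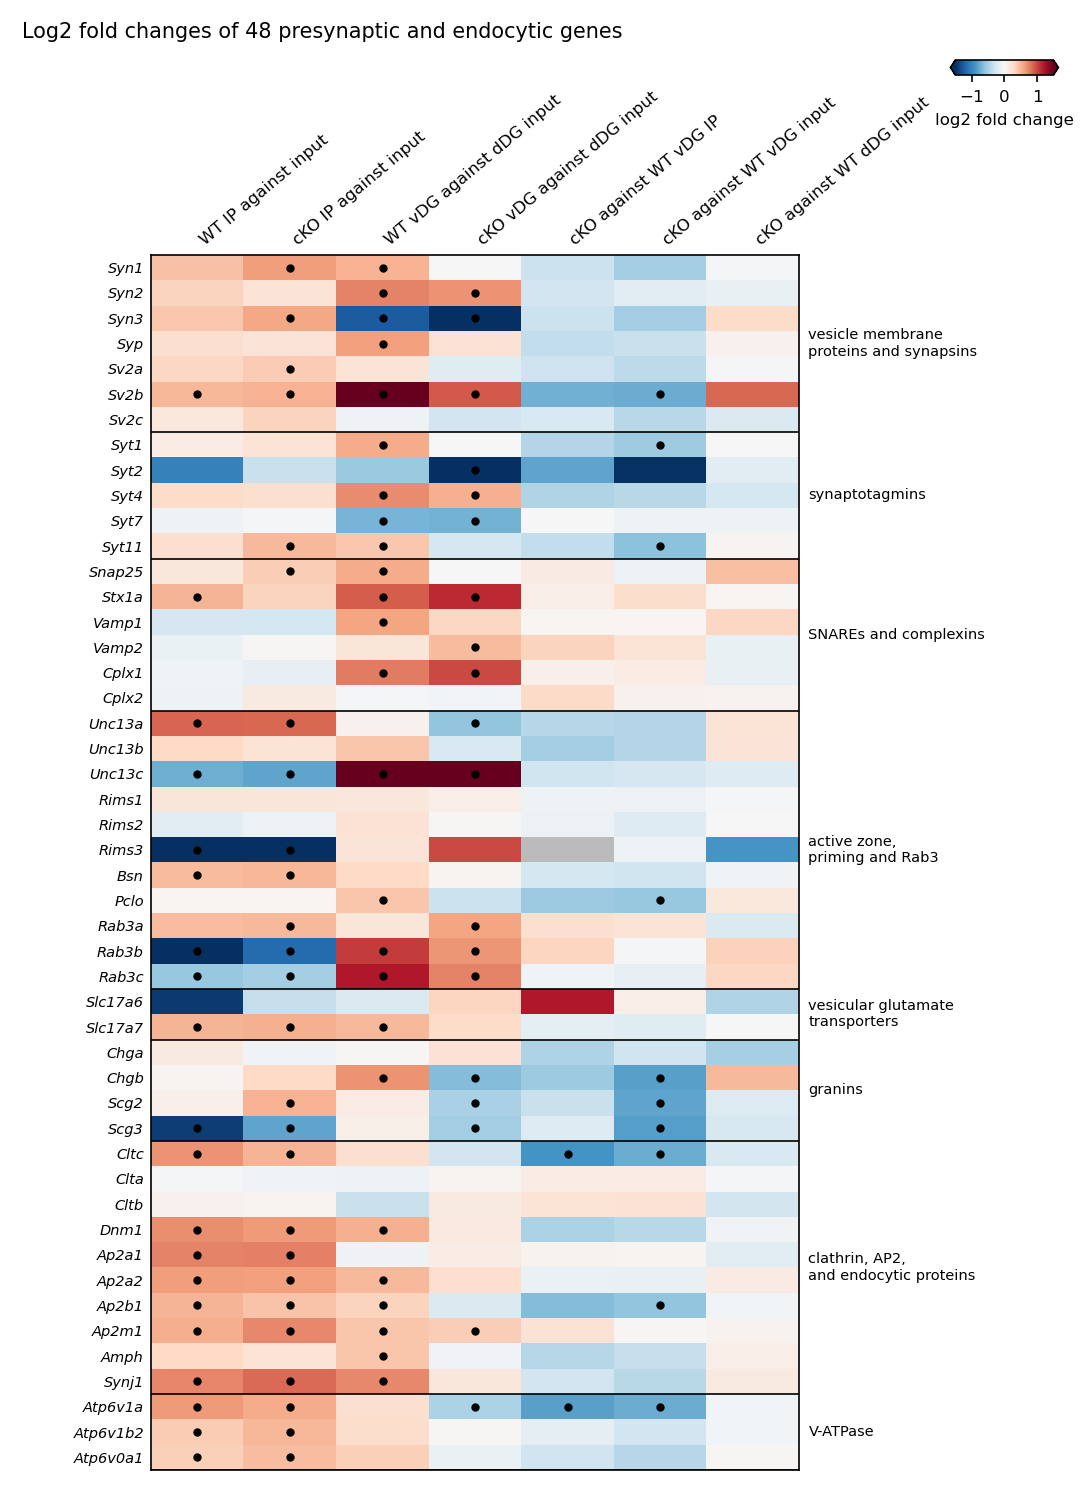
Log2 fold changes of the 48 genes (rows, grouped into 8 classes) in 7 comparisons (columns), from blue (lower in the first group named) to red (higher), with the color saturating beyond 1.5. A black point marks a called gene, and grey the 1 gene that was not tested in the IPs between genotypes (*Rims3*). In both IP columns 7 of 10 endocytic rows and all 3 V-ATPase rows are red with a point, and in the 3 genotype columns every point lies on blue.

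IP against input asks which of these mRNAs the tagged excitatory neurons held at a higher or lower level than the whole vDG. Of the members, 7 of 10 endocytic genes and all 3 V-ATPase subunits were higher in the IP, while *Scg3*, *Rab3b*, *Rab3c*, *Unc13c* and *Rims3* were lower, and the same held in both genotypes, which share no library. In WT, 15 members were higher and 5 lower (edgeR quasi-likelihood test, FDR under 0.05; fold changes are log2 values ± SE throughout), or 41.7% of the 48, against 23.9% of the 15011 genes tested. In cKO, 21 were higher and 5 lower, or 54.2%, against 27.5% of 15126 genes. Of all genes tested, 7.73% were higher and 16.1% lower in the WT IP. Without WT vDG input replicate 1, 9 members were higher and 5 lower, with 2431 genes called in all. Without WT vDG IP replicate 2, 13 were higher and 3 lower, with 2792 genes called in all. The median log2 fold change of the members was 0.25 in WT and 0.27 in cKO, against 0.00 and -0.03 over all genes. It was 0.15 in WT without WT vDG IP replicate 3 and 0.42 in cKO without cKO vDG IP replicate 1. Groups did not overlap for 56.2% of members and 41.6% of all genes in WT, and for 75.0% and 65.1% in cKO. Every member called higher also reached the fold minimum for enrichment used in the study, as did 7.72% of all genes in WT and 11.4% in cKO. In cKO, 11.8% of all genes were called higher and 15.7% lower. *Rims3*, *Rab3b* and *Scg3* in WT, and *Rims3* and *Rab3b* in cKO, fell under a fold of 0.5 in the IP, as did 11.4% of all genes in WT and 10.7% in cKO. By genotype, 14 members were called higher in both, 5 lower in both, 1 higher in WT alone (*Stx1a*) and 7 higher in cKO alone (*Syn1*, *Syn3*, *Sv2a*, *Syt11*, *Snap25*, *Rab3a* and *Scg2*). The cKO call of *Snap25* was lost in 4 of 14 alternatives (0.19 to 0.51 over all 14), and that of *Sv2a* in 3 (0.22 to 0.55). A difference between genotypes in IP enrichment was not called for any member. With library size alone as the scaling, the median of all genes moved to -0.13 in WT and -0.20 in cKO, that of the members to 0.12 and 0.10, and the counts to 10 higher and 5 lower in WT and 14 higher and 7 lower in cKO.

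In the clathrin class, 7 of 10 members were higher in the WT IP and none lower. *Synj1*, the phosphatase synaptojanin 1 that strips clathrin coats, stood at 1339.5, 1180.1 and 1592 CPM in WT IPs and 738, 858 and 772 CPM in WT vDG inputs, a log2 fold change of 0.73 ± 0.13 (SE, FDR = 7.14e-04). *Dnm1*, the fission GTPase dynamin 1, stood at 1283, 937 and 1075 CPM in IPs and 635, 674 and 633 CPM in inputs, at 0.70 ± 0.13 (SE, FDR = 0.00128). Both genes were higher in each IP than in any input. *Cltc*, the clathrin heavy chain, was at 618, 503 and 619 CPM in IPs and 340.1, 363 and 339.8 CPM in inputs, at 0.68 ± 0.12 (SE, FDR = 8.79e-04). The AP2 adaptor, a complex of large, medium and small subunits that links clathrin to cargo, had all 4 subunit genes of the list called higher. *Ap2a1* was at 93.3, 91.6 and 92.1 CPM in WT IPs against 41.7, 54.0 and 62.3 in inputs, *Ap2a2* at 365, 328 and 373 against 209, 248 and 208, *Ap2b1* at 362, 308 and 369 against 223, 253 and 223 and *Ap2m1* at 219, 238 and 232 against 152, 147 and 156. Their log2 fold changes were 0.75 ± 0.14, 0.62 ± 0.12, 0.51 ± 0.12 and 0.54 ± 0.11 (SE), with FDRs between 0.0016 and 0.0063, and no IP overlapped an input. The light chains *Clta* and *Cltb* were not called, at -0.02 ± 0.16 and 0.07 ± 0.16 (FDR = 0.937 and 0.793). The cKO gave the same 7 calls, from 0.43 ± 0.12 for *Ap2b1* to 0.85 ± 0.11 for *Synj1*. *Synj1* was at 984 and 1215 CPM in cKO IPs and 589.6 and 606 CPM in cKO vDG inputs, *Dnm1* at 661 and 882 against 425 and 549, *Ap2a1* at 89.4 and 97.6 against 53.0 and 56.0, *Ap2a2* at 294 and 353 against 184 and 230.4 and *Ap2m1* at 248 and 273 against 165 and 145, again without overlap. *Cltc* was at 264 and 342 against 190.2 and 227 CPM and *Ap2b1* at 187 and 243 against 152 and 161, and these 2 calls were lost with library size alone, without cKO vDG IP replicate 2 and without cKO vDG input replicate 1.

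All 3 V-ATPase subunits among the members were higher in both genotypes. Of the V-ATPase genes in the wider list, *Atp6v0c* and *Atp6v1d* were called higher in both genotypes and *Atp6v0e* lower in both. *Atp6v1g2*, *Atp6v1e1*, *Atp6v0d1* and *Atp6ap1* were called higher in cKO alone, and the rest were not called. *Atp6v1a*, the catalytic A subunit, was counted at 1340.5, 1162 and 1327 CPM in WT IPs and 779.9, 789.8 and 783 CPM in WT vDG inputs, at 0.64 ± 0.11 (SE, FDR = 7.77e-04). *Atp6v1b2* and *Atp6v0a1* were at 0.38 ± 0.13 and 0.35 ± 0.11 in WT (FDR = 0.0418 and 0.0365), and each lost its call in 8 of 16 alternative settings. In cKO, both lost their call with library size alone. *Slc17a7*, the vesicular glutamate transporter VGLUT1 of these cells, was at 622, 713 and 746 CPM in WT IPs against 385, 516 and 499.5 in inputs, at 0.51 ± 0.13 (SE, FDR = 0.0106) and not called without WT vDG input replicate 1, and its sister *Slc17a6* was near the floor, at 0.280, 0.198 and 0.846 CPM in IPs and 1.38, 1.38 and 0.663 in inputs. Per kilobase, *Slc17a7* made up 99.9% ± 0.0451 (SD, n = 3) of the pair in the WT IP. In cKO, *Atp6v1a* was at 594 and 822 CPM in IPs and 418 and 526 CPM in inputs (0.56 ± 0.15, FDR = 0.0141), a call that was lost in 4 of 14 alternatives (DESeq2, library size alone, without cKO vDG IP replicate 2 and without cKO vDG input replicate 1) with log2 fold changes between 0.31 and 0.81 over all 14, and *Slc17a7* at 599 and 628 against 393 and 437 (0.54 ± 0.10, FDR = 0.00165).

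Genes of the active zone split by paralogue. *Unc13a*, which encodes the priming factor Munc13-1, was at 282, 305 and 395 CPM in WT IPs and 154, 197 and 161 CPM in inputs, the largest rise of all members at 0.88 ± 0.14 (SE, FDR = 4.58e-04). *Unc13c* (Munc13-3) went the other way, with 8.93, 10.9 and 13.5 CPM in IPs and 13.9, 22.2 and 16.8 CPM in inputs, at -0.73 ± 0.20 (SE, FDR = 0.0154). Per kilobase, *Unc13c* made up 12.0% ± 1.22 of the Munc13 family in WT vDG inputs and 4.41% ± 0.255 in WT IPs (SD, n = 3). The Rab3 GTPases, which tether vesicles to the active zone, split likewise. *Rab3b* was at 13.4, 15.8 and 19.4 CPM in IPs and 36.9, 48.9 and 46.3 CPM in inputs (-1.51 ± 0.16, FDR = 9.93e-06), and *Rab3c* at 674, 614 and 786 and 952, 1006 and 979 CPM (-0.56 ± 0.12, FDR = 0.0027). *Rab3a* passed the threshold in cKO, at 488 and 495 against 341 and 349 CPM (0.48 ± 0.09, FDR = 0.00224), and missed it in WT, at 495, 429.9 and 356 against 252, 278 and 367 CPM, which overlapped (0.46 ± 0.16, FDR = 0.0515). Its share of the Rab3 family was 58.5% ± 4.37 in WT vDG inputs and 75.3% ± 5.20 in WT IPs. *Rims3*, a short RIM, had 14, 5 and 5 counts in the WT IPs and 29, 33 and 40 in the inputs (-2.01 ± 0.51, FDR = 0.0104), while its relatives *Rims1* and *Rims2* were at 0.18 and -0.17 with FDRs of 0.248 and 0.287. The scaffold *Bsn* (bassoon) was called higher (0.48 ± 0.13, FDR = 0.0137) and its partner *Pclo* (piccolo) was at 0.03 ± 0.17 (SE, FDR = 0.925). Exons of *Rab3b*, *Unc13a* and *Ap2a1* overlap 317, 495 and 720 bases of a gene on the opposite strand, and the kit does not mark strand, so reads of such partners cannot be told apart. In WT, the call of *Unc13c* was lost without WT vDG IP replicate 1 or 2 or WT vDG input replicate 2, that of *Rims3* without WT vDG IP replicate 2 or WT vDG input replicate 3, and that of *Bsn* in 4 of 16 alternatives, among them without WT vDG input replicate 1 or 3. These 3 genes were called in the same directions in cKO, where *Unc13c* lost its call without cKO vDG input replicate 1 and with all groups in one fit, *Rims3* without either cKO vDG input, and *Bsn* with the length trend removed. *Unc13a* was at 199 and 273 CPM in cKO IPs and 116 and 139 CPM in cKO inputs (0.87 ± 0.14, FDR = 9.42e-04), and *Unc13c* at 9.47 and 8.16 and 17.0 and 12.9 CPM (-0.79 ± 0.21, FDR = 0.0148). *Rab3b* was at 20.3 and 19.3 and 43.8 and 43.0 CPM (-1.16 ± 0.13, FDR = 7.01e-05) and *Rab3c* at 670.3 and 626 and 913 and 899 CPM (-0.51 ± 0.09, FDR = 0.00169). *Rims3* had 4 and 4 counts in cKO IPs and 25 and 39 in inputs.

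Among the granins, *Scg3*, secretogranin III, which binds chromogranins to the granule membrane, was lower in the IP. It was at 46.7, 55.2 and 62.0 CPM in WT IPs and 123, 147 and 149 CPM in WT vDG inputs, at -1.42 ± 0.13 (SE, FDR = 3.00e-06), and at 46.5 and 46.9 against 89.2 and 69.3 CPM in cKO (-0.79 ± 0.13, FDR = 0.00114). All IPs lay below all inputs in both genotypes. The other granins were not called in WT, with *Chga*, *Chgb* and *Scg2* at 0.14, 0.04 and 0.08 (FDR = 0.552, 0.908 and 0.726). In cKO, *Scg2* was called higher in the IP (0.52 ± 0.11, FDR = 0.00526). Per kilobase, *Scg3* made up 5.12 to 7.59% of the 4 granins in WT IPs and 13.4 to 19.2% in WT vDG inputs.

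Vesicle membrane proteins showed smaller values, all on the positive side. *Sv2b*, a vesicle glycoprotein, was called higher in WT, at 531, 469 and 726 CPM in IPs against 368, 425 and 371 in inputs (0.50 ± 0.15, FDR = 0.0214), a call that was lost with library size alone and without WT vDG IP replicate 3 or WT vDG input replicate 1 or 3. The other 6 of the class lay between 0.16 and 0.44 on the log2 scale. In cKO, *Syn1* was at 708 and 800.3 CPM in IPs and 446 and 516 in inputs (0.62 ± 0.11, FDR = 0.00118), and *Syn3* at 84.2 and 89.9 against 52.8 and 61.1 (0.58 ± 0.12, FDR = 0.00324). *Syn1* in WT was at 961, 832 and 1119.5 CPM in IPs and 543, 869.5 and 648 in inputs, which overlapped (0.44 ± 0.16, FDR = 0.0606). No synaptotagmin was called in WT, with *Syt1*, the main calcium sensor of fast release, at 927, 890.1 and 1109 against 798, 903 and 889 CPM (0.11 ± 0.12, FDR = 0.521). *Snap25* was at 10869, 8501 and 13369 CPM in WT IPs and 9209, 10105 and 8520.5 in inputs (0.17 ± 0.14, FDR = 0.432). *Stx1a*, the plasma membrane SNARE syntaxin 1A, was the 1 called gene of its class in WT (0.51 ± 0.17, FDR = 0.0452), and 6 of 16 alternatives did not call it. The wider list of 80 other presynaptic and secretory genes gave 17 higher and 5 lower of 79 tested in WT, or 27.8%, against the 23.9% of all genes. *Nsf*, the ATPase that takes SNARE complexes apart, was among the higher genes (0.57 ± 0.13, FDR = 0.00452), and the complexin *Cplx3* (-3.31 ± 0.66, FDR = 0.00227) was the lowest.

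vDG against dDG inputs asks how these genes differ along the long axis of the DG. In WT, 4 of 7 vesicle membrane proteins, 3 of 5 synaptotagmins, 4 of 6 SNAREs and complexins and 6 of 10 endocytic genes were higher in the vDG, led by *Sv2b*, and *Syn3* and *Syt7* were lower. Of the 25 WT calls over all classes, 8 were lost under at least 1 alternative (*Syn1*, *Syt11*, *Vamp1*, *Pclo*, *Slc17a7*, *Ap2b1*, *Ap2m1* and *Amph*), each of them when 1 library was left out, and *Ap2b1* without any 1 of the 6. Of the 48 members, 23 were higher and 2 lower in the WT vDG input (FDR under 0.05), or 52.1%, against 15.3% of the 15412 genes tested, of which 9.26% were higher and 6.09% lower. Groups did not overlap for 58.3% of members and 31.4% of all genes. The median log2 fold change was 0.34 for members and -0.01 for all genes. In cKO, 11 were higher and 8 lower, or 39.6%, against 17.0% of 15505 genes, with a median of 0.04 against 0.01 (-0.00 without cKO dDG input replicate 1 and 0.12 without replicate 2), and 8.56% of all genes were higher and 8.47% lower. Groups did not overlap for 62.5% of the members and 58.2% of all genes in cKO. These are whole tissue inputs, in which more cells of a type and more RNA per cell cannot be told apart. Markers of hilar mossy cells were higher in the vDG too, with a summed level over 5 markers of 192 to 227 CPM in WT vDG and 50.7 to 59.9 CPM in WT dDG inputs and 3 of 5 called higher. Markers of CA pyramidal cells summed to 240 to 326 CPM in WT vDG and 162 to 209 CPM in WT dDG inputs (3 of 6 higher, 1 lower), and 4 of 8 interneuron markers were higher. Of the 6 granule cell markers, 4 were lower in the WT vDG (*Dsp*, *C1ql2*, *Rasl10a* and *Prox1*) and none higher, with a median log2 fold change of -0.52. The part of these cells in the values of the members was not tested.

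*Sv2b* (ENSMUSG00000053025, chr7:75114894-75309262, minus strand, GRCm38) gave the largest difference. It was counted at 368, 425 and 371 CPM in the WT vDG inputs and at 50.3, 57.4 and 93.5 CPM in the WT dDG inputs, at 2.54 ± 0.18 (SE, FDR = 5.55e-08). In cKO the values were 229 and 237 against 85.0 and 159 CPM, at 0.92 ± 0.18 (SE, FDR = 0.00112), which ranged from 0.53 to 1.45 over the alternatives and was not called by DESeq2. The lowest vDG library of either genotype stood above the highest dDG library. With it, the makeup of the SV2 family changed along the axis: *Sv2b* made up 54.7% ± 2.68 of the family per kilobase in WT vDG inputs and 18.6% ± 4.90 in WT dDG inputs, where *Sv2a* made up 69.4% ± 3.23 (SD, n = 3). *Sv2a* itself was at 0.20 ± 0.12 (SE, FDR = 0.283).

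Synapsins differed in direction between paralogues. *Syn2* was at 639, 604 and 667 CPM in WT vDG and 353, 392 and 407 CPM in WT dDG inputs (0.74 ± 0.11, FDR = 9.66e-05). *Syn3* was at 76.1, 102 and 65.5 and 179.6, 187 and 217 CPM (-1.25 ± 0.14, FDR = 1.20e-05), and in cKO at 52.8 and 61.1 and 205 and 267 CPM (-2.06 ± 0.13, FDR = 1.43e-09). No vDG library reached a dDG library for *Syn3*, and the call held in all alternatives in both genotypes. *Syn3* shares 1733 exonic bases with *Timp3* on the opposite strand, and reads on that stretch cannot be told apart. Among the calcium sensors, *Syt7*, of slow and facilitating release, was lower in the vDG in both genotypes, at 181, 206 and 178 against 376, 260.4 and 289 CPM in WT (-0.70 ± 0.13, FDR = 0.00127) and 170.1 and 191 against 273 and 311 CPM in cKO (-0.70 ± 0.12, FDR = 1.87e-04). *Syt1*, of fast release, was higher in WT at 798, 903 and 889 against 606, 566 and 609.6 CPM (0.55 ± 0.10, FDR = 0.00111), and *Syt4* at 109, 102 and 110.5 against 69.1, 65.5 and 63.6 CPM (0.71 ± 0.11, FDR = 1.86e-04). *Syt7* thus made up 23.5% ± 2.91 of the 5 synaptotagmins per kilobase in the WT dDG inputs and 11.7% ± 0.586 in the vDG inputs. In cKO, *Syn2* was at 522 and 616 against 357 and 354 CPM (0.67 ± 0.11, FDR = 2.57e-04) and *Syt4* at 81.2 and 80.6 against 52.0 and 58.5 CPM (0.54 ± 0.12, FDR = 0.00314). *Syt2* was called lower in the cKO vDG on 17 and 7 against 31 and 47 counts (-1.90 ± 0.54, FDR = 0.0173).

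**Figure D2:**
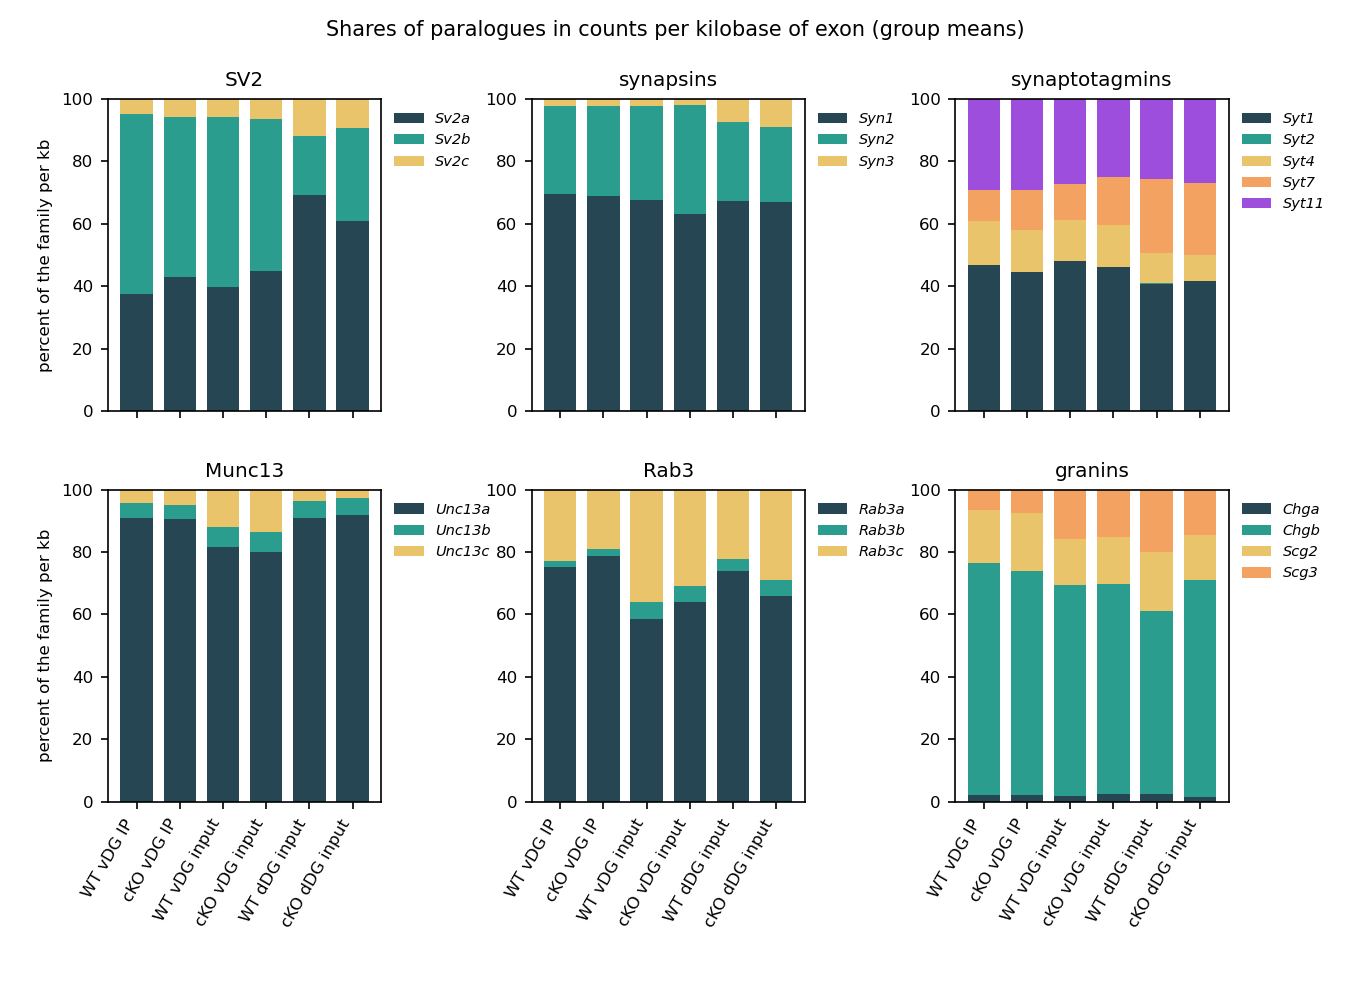
Share of each paralogue in its family, in percent of the CPM per kilobase summed over the members of the family, as group means over 3 WT or 2 cKO libraries, for 6 families (panels) and 6 groups (bars). *Sv2b* holds the largest share of the SV2 family in the vDG and *Sv2a* in the dDG, and *Unc13c* and *Rab3c* take a larger share in vDG inputs than in vDG IPs.

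*Stx1a* and *Cplx1* were higher in the vDG in both genotypes. *Stx1a* was at 35.3, 30.1 and 44.2 CPM in WT vDG and 15.1, 19.8 and 24.1 CPM in WT dDG inputs (0.90 ± 0.17, FDR = 0.00156), and *Cplx1*, complexin 1, at 311, 352 and 334 and 168, 195 and 223 CPM (0.78 ± 0.12, FDR = 1.72e-04). In cKO, *Stx1a* was at 43.1 and 45.2 against 22.1 and 18.2 CPM (1.12 ± 0.14, FDR = 6.14e-06) and *Cplx1* at 377 and 348 against 191 and 172 CPM (0.99 ± 0.11, FDR = 2.13e-06), again without overlap. *Cplx2*, the main complexin by level, was at -0.03 ± 0.11 (SE, FDR = 0.91). *Vamp2* was called in cKO alone, at 2074 and 1973 against 1536 and 1358 CPM (0.47 ± 0.11, FDR = 0.00438). In the active zone class all 11 WT values were positive and 4 were called. *Unc13c* was at 13.9, 22.2 and 16.8 CPM in WT vDG and 2.78, 6.81 and 4.04 CPM in WT dDG inputs (1.98 ± 0.25, FDR = 3.58e-05), *Rab3b* at 36.9, 48.9 and 46.3 and 14.3, 22.4 and 27.4 CPM (1.05 ± 0.19, FDR = 7.97e-04), and *Rab3c* at 952, 1006 and 979 and 397, 464 and 429.9 CPM (1.20 ± 0.10, FDR = 5.50e-07). In cKO, *Unc13c* was at 17.0 and 12.9 against 3.43 and 4.52 CPM, *Rab3b* at 43.8 and 43.0 against 29.8 and 24.6 and *Rab3c* at 913 and 899 against 495 and 575, at 1.91 ± 0.21, 0.66 ± 0.13 and 0.75 ± 0.11, all called (*Rab3b* not with all groups in one fit). These 3 genes were also 3 of the 5 members lower in the IP than in the input of the vDG, and both comparisons use the WT vDG inputs. The endocytic class had 6 of 10 higher, among them *Synj1* at 738, 858 and 772 against 462, 453 and 534 CPM (0.72 ± 0.11, FDR = 1.86e-04), while no V-ATPase subunit was called (lowest FDR = 0.0532).

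*Chgb* was the 1 member called in opposite directions in the 2 genotypes. In WT it was at 659, 693 and 489.8 CPM in vDG and 409, 329 and 432 CPM in dDG inputs (0.67 ± 0.14, FDR = 0.00264), with each vDG library above each dDG library. In cKO it was at 306 and 399 and 424 and 671 CPM (-0.65 ± 0.16, FDR = 0.00798), with each vDG library below each dDG library. *Scg2* and *Scg3* were not called in WT (0.11 and 0.09) and were lower in the cKO vDG, at 75.5 and 66.7 against 93.4 and 104 CPM (-0.49 ± 0.12, FDR = 0.00705) and 89.2 and 69.3 against 101 and 124 CPM (-0.52 ± 0.13, FDR = 0.0104). *Unc13a* was lower in the cKO vDG as well, at 116 and 139 against 160.2 and 221 CPM (-0.59 ± 0.14, FDR = 0.00481), as was *Atp6v1a*, at 418 and 526 against 541 and 759 CPM (-0.47 ± 0.14, FDR = 0.0255). *Rab3a* was higher in the cKO vDG, at 341 and 349 against 257 and 198 CPM (0.59 ± 0.12, FDR = 0.00168). Of the 8 members called lower in the cKO vDG, 6 rest on cKO dDG input replicate 2, which stood highest for *Chgb*: without that library only *Syn3* and *Syt7* were called lower and 8 members higher, and *Vamp2*, *Rab3a* and *Ap2m1* were lost among the higher. *Chgb* in cKO was also not called by DESeq2 or with all groups in one fit. Without cKO vDG input replicate 1, *Atp6v1a* and *Ap2m1* were not called, without cKO vDG input replicate 2, *Syt2* and *Scg3* were not, and *Ap2m1* was not called without cKO dDG input replicate 1 either. Of the wider list, 24 were higher and 6 lower of 79 in WT (38.0%), and 17 and 11 of 80 in cKO (35.0%). Among the higher WT genes were *Pcsk1* (prohormone convertase 1) at 1.84 ± 0.31, *Cpe* (carboxypeptidase E) at 1.02 ± 0.11 and *Ptprn2* at 1.03 ± 0.12 (SE), while *Pcsk2* (prohormone convertase 2) was not called (0.15 ± 0.11, FDR = 0.43).

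**Figure D3:**
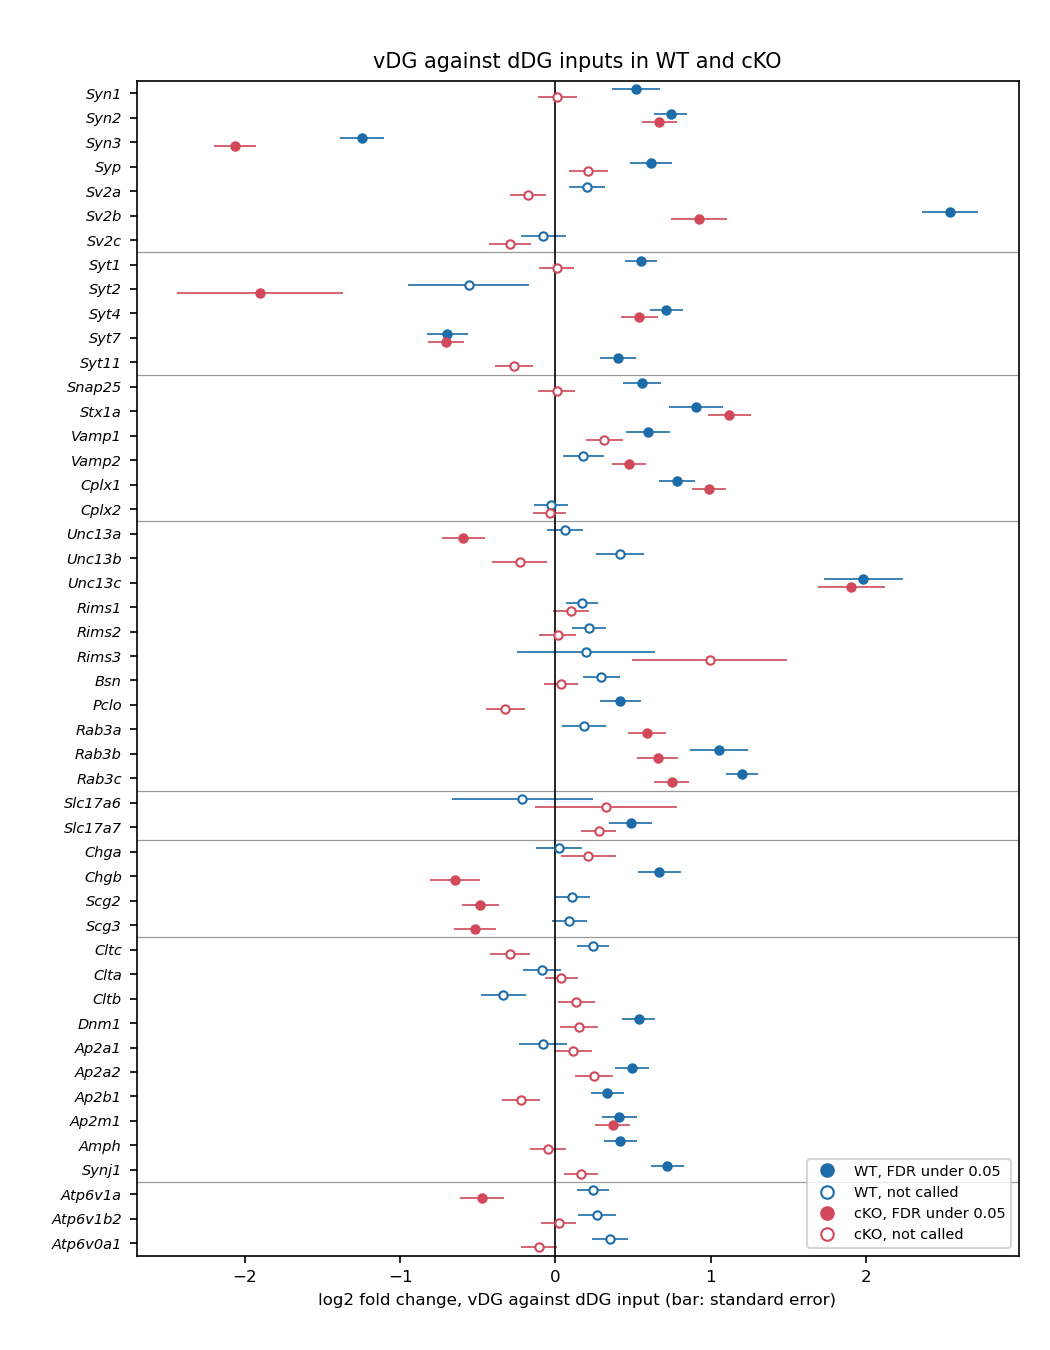
Log2 fold change of vDG against dDG input for each gene in WT (blue) and cKO (red), with the standard error as a bar and called genes filled (3 WT against 3 WT libraries, 2 cKO against 2 cKO). Most WT points lie to the right of 0, *Sv2b* lies furthest at 2.54, and the cKO points of most vesicle, granin and endocytic genes lie to the left of the WT points.

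cKO against WT asks how these transcripts differed between mice with mutant *Htr4* in Cre-expressing cells and mice with intact *Htr4*. The inputs also hold RNA of cells that do not express Cre. In the vDG, 3 granins, *Sv2b*, *Syt1*, *Syt11*, *Cltc*, *Ap2b1*, *Pclo* and *Atp6v1a* were lower in the cKO input, and no SNARE or complexin was called. In the vDG input, 10 members were lower and 0 higher (FDR under 0.05), or 20.8% of the 48, against 2.44% of the 15786 genes tested, of which 2.33% were lower and 0.108% higher. At an unadjusted p under 0.05, 25 members and 14.8% of all genes passed. Groups did not overlap for 26 members (54.2%), all lower in cKO, against 32.8% of all genes, and 17.1% on the lower side. The median log2 fold change was -0.30 over the members and 0.01 over all genes. In the vDG IP, 2 members (*Cltc* and *Atp6v1a*) were lower and 0 higher at an FDR under 0.1, or 4.26% of 47 tested, against 0.420% of 14300 genes, of which 0.350% were lower and 0.0699% higher. Groups did not overlap for 57.4% of members and 30.2% of all genes. The median was -0.28 over members and -0.00 over all genes, and -0.17 over members without WT vDG IP replicate 3. At an FDR under 0.05 no member was called in the IP, and 22 members and 11.7% of all genes had an unadjusted p under 0.05. In the dDG input no member was called, against 0.0325% of 15383 genes (0.00650% higher and 0.0260% lower). There, 8 members and 12.2% of all genes had an unadjusted p under 0.05, groups did not overlap for 14.6% of members and 29.4% of all genes, and the median was -0.03 against -0.02, between -0.08 and 0.05 with 1 library left out. DESeq2 called 8 members in the IP, 15 in the vDG input and 1 in the dDG input, out of 374, 620 and 182 genes it called in all, where edgeR called 60, 385 and 5. The cKO has 2 libraries per group, and the calls depend on each of them: without cKO vDG input replicate 1 only *Scg3* was called in the vDG input, and without replicate 2 only *Chgb*, *Cltc* and *Atp6v1a*.

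**Figure D4:**
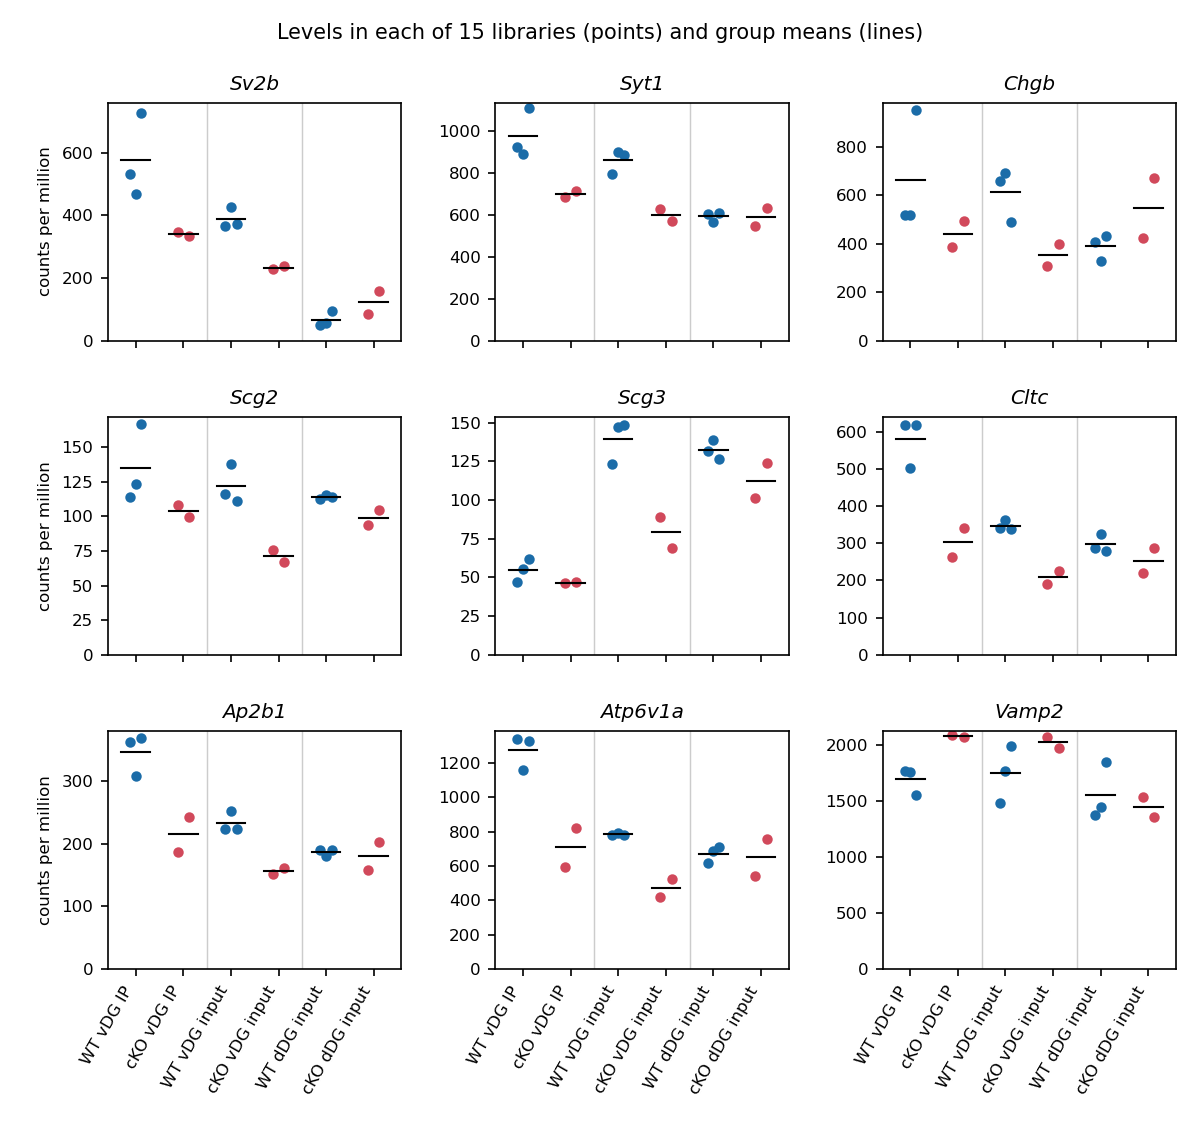
Levels (CPM, y axes from 0) of 9 genes in each of the 15 libraries, by group along the x axis, with WT points in blue, cKO points in red and group means as lines. For *Sv2b*, *Scg2*, *Scg3*, *Cltc*, *Ap2b1* and *Atp6v1a* the 2 cKO vDG inputs lie below the 3 WT vDG inputs, as they do for *Syt1* and *Chgb*, while the *Vamp2* inputs of both genotypes overlap.

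3 of the 4 granins were lower in the cKO vDG input. *Chgb* (ENSMUSG00000027350, chr2:132781278-132795079, plus strand) was at 659, 693 and 489.8 CPM in WT and 306 and 399 CPM in cKO, at -0.81 ± 0.15 (SE, FDR = 0.00595). *Scg2* (ENSMUSG00000050711, chr1:79434669-79440120, minus strand), the precursor of secretoneurin, was at 116, 138 and 111 and 75.5 and 66.7 CPM, at -0.79 ± 0.14 (SE, FDR = 0.00396). *Scg3* (ENSMUSG00000032181, chr9:75643189-75684056, minus strand) was at 123, 147 and 149 and 89.2 and 69.3 CPM, at -0.83 ± 0.14 (SE, FDR = 0.00344). In all 3 the cKO inputs lay below every WT input. *Chga*, the fourth granin and the lowest in level, was at -0.30 ± 0.18 (SE, FDR = 0.457). In the IPs of the same genotypes, the log2 fold changes of *Chgb*, *Scg2* and *Scg3* were -0.55 ± 0.22, -0.34 ± 0.16 and -0.19 ± 0.15 (FDR = 0.363, 0.438 and 0.654), none of them called. *Chgb* was at 517, 519.9 and 950.0 CPM in WT and 388 and 493 CPM in cKO IPs, with WT replicate 3 far above the other two. In the dDG input, *Chgb* was at 409, 329 and 432 CPM in WT and 424 and 671 in cKO (0.49 ± 0.16, FDR = 0.235). Of the wider list, 5 genes were lower in the cKO vDG input (*Cpe*, *Hspa8*, *Pcsk2*, *Ptprn2* and *Nsf*) and 0 higher, out of 80 (6.25%). *Cpe* and *Pcsk2*, which trim granule peptides, were at -0.71 ± 0.13 (SE, FDR = 0.00479) and -0.60 ± 0.13 (SE, FDR = 0.0143), and *Ptprn2*, a granule membrane protein, at -0.55 ± 0.13 (SE, FDR = 0.0215).

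*Cltc* (ENSMUSG00000047126, chr11:86694351-86757565, minus strand) and *Atp6v1a* (ENSMUSG00000052459, chr16:44085402-44139705, minus strand) were called in both fractions of the vDG. The libraries differ, but the inputs were taken from the homogenate before the IP, so the fractions can share animals and are not independent. *Cltc* was at 618, 503 and 619 CPM in WT and 264 and 342 CPM in cKO IPs (-0.90 ± 0.15, FDR = 0.0654), and at 340.1, 363 and 339.8 and 190.2 and 227 CPM in the inputs (-0.75 ± 0.13, FDR = 0.00379). *Atp6v1a* was at 1340.5, 1162 and 1327 and 594 and 822 CPM in IPs (-0.81 ± 0.15, FDR = 0.0705) and at 779.9, 789.8 and 783 and 418 and 526 CPM in inputs (-0.74 ± 0.13, FDR = 0.00412). Groups did not overlap for either gene in either fraction. Both IP calls were lost without WT vDG IP replicate 2 or without either cKO IP. In the dDG input the values were -0.23 ± 0.12 (SE, FDR = 0.478) and -0.05 ± 0.13 (SE, FDR = 0.931). The clathrin light chains and the alpha subunits of AP2 were not called: in the vDG input *Clta* was at 0.12 ± 0.14, *Cltb* at 0.21 ± 0.16, *Ap2a1* at 0.04 ± 0.15 and *Ap2a2* at -0.11 ± 0.13 (SE). *Ap2b1* was lower, at 223, 253 and 223 CPM in WT and 152 and 161 CPM in cKO inputs (-0.59 ± 0.13, FDR = 0.0128), and stood at -0.65 ± 0.15 (SE, FDR = 0.116) in the IP. *Hspa8*, the chaperone that uncoats clathrin vesicles, was the 1 gene of the wider list called in the IP (-0.83 ± 0.15, FDR = 0.0705). The CRE string lies in the promoter window of 2 of the 3 called granins and of *Ap2b1*, and also in those of *Cltb* and *Syn1*, which were not called here.

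*Sv2b* was at 368, 425 and 371 CPM in WT and 229 and 237 CPM in cKO vDG inputs (-0.75 ± 0.13, FDR = 0.00344). In the IP it was at 531, 469 and 726 and 347 and 333 CPM (-0.72 ± 0.16, FDR = 0.116), also without overlap. In the dDG the order was the opposite, with 50.3, 57.4 and 93.5 CPM in WT and 85.0 and 159 CPM in cKO, and the groups overlapped (0.86 ± 0.24, FDR = 0.18). *Syt1* was at 798, 903 and 889 CPM in WT and 628 and 571 CPM in cKO vDG inputs (-0.54 ± 0.12, FDR = 0.0198), and *Syt11*, which does not bind calcium, at 264, 357 and 295 and 200.2 and 202 CPM (-0.61 ± 0.13, FDR = 0.0153). *Pclo* was at 673, 1006 and 764 and 621 and 489 CPM (-0.56 ± 0.15, FDR = 0.0441), and 9 of 15 alternatives did not call it. All 7 vesicle membrane proteins and all 5 synaptotagmins had negative values in both the vDG input and the IP, whereas SNAREs and complexins were positive in 5 of 6 in the input and 6 of 6 in the IP, none of them called. *Snap25* was at 10869, 8501 and 13369 CPM in WT and 10846 and 12245 CPM in cKO IPs (0.12 ± 0.16, FDR = 0.809), and *Vamp2* at 1769, 1756 and 1557 and 2089.9 and 2073 CPM (0.33 ± 0.12, FDR = 0.337). A missed threshold does not show that these levels were the same, and the 2 cKO IPs lay above all WT IPs for *Vamp2*.

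Several other measures moved with genotype in the vDG input, while some marker sums overlapped. Among markers, 3 of 6 astrocyte genes were lower in cKO, with a summed level of 658 to 659 CPM against 757 to 910 CPM in WT and a median log2 fold change of -0.60, and interneuron markers summed to 388 to 395 CPM against 451 to 525 CPM, with none of 8 called. In the IPs, interneuron markers summed to 116 to 131 CPM in cKO and 167 to 196 CPM in WT, with 1 of 6 tested called lower (*Gad2*, -0.91 ± 0.15, FDR = 0.0618), and astrocyte markers to 88.9 to 106 CPM and 112 to 157 CPM. The 6 microglia markers summed to 18.6 to 25.3 CPM in cKO and 26.2 to 41.5 CPM in WT inputs, without overlap, with none called and a median of -0.62. *Trhr*, the ventral marker, was at 14.7 to 22.8 CPM in cKO and 21.8 to 31.5 CPM in WT inputs (-0.50 ± 0.19, FDR = 0.179), and the mossy cell marker *Calcrl* at -0.69 ± 0.21 (SE, FDR = 0.0754). The sum over all 5 mossy cell markers overlapped, at 182 to 215 CPM in cKO and 192 to 227 CPM in WT inputs. The granule cell markers summed to 1092 CPM in both cKO inputs and 1026 to 1161 CPM in WT inputs, with 1 of 6 called lower. Markers of immature neurons summed to 176 to 210 CPM in cKO and 133 to 206 CPM in WT inputs, which overlapped. By staining, the study counted more doublecortin-positive immature neurons in the cKO vDG. Long transcripts also tended downward: genes with 6000 bases of exon or more had a median of -0.07 and held 191 of the 368 genes called lower, and genes under 2000 bases had a median of 0.15. Of the members, 23 have 6000 bases or more, with a median of -0.42 and 6 calls, and 24 have at least 2000 and under 6000 bases, with a median of -0.23 and 4 calls. With the length trend removed, 10 members were called, 9 of them shared with the 10 given above. What part astrocytes, microglia or other cells had in the values was not tested.

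The difference between these changes was tested directly. In the genotype by region interaction over the inputs, 0 of 48 members and 0 of 16306 genes passed an FDR of 0.05 (edgeR), so that 0% of all genes were called. At an unadjusted p under 0.05, 22 members and 12.3% of all genes passed, and the median was -0.33 over the members and -0.01 over all genes. The lowest FDRs were those of *Sv2b* (-1.62 ± 0.32, FDR = 0.0999) and *Chgb* (-1.32 ± 0.26, FDR = 0.0999), past an FDR of 0.1 and not of 0.05. DESeq2 called 10 members, all lower, among 246 genes in all. In the genotype by fraction interaction over the vDG libraries, 0 of 48 members and 0 of 16093 genes passed, 2 members and 3.09% of all genes had an unadjusted p under 0.05 (*Scg2* at 0.46 ± 0.21 and *Scg3* at 0.65 ± 0.20, SE), and DESeq2 called 0. The IP and input values of the cKO change are therefore not shown to differ for any member.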

How the data were processed

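The deposited files hold raw counts per gene for 15 libraries. Per the labels and methods, the authors amplified RNA (NuGEN Ovation V2), aligned paired reads to mm10 with STAR 2.4.2a, removed duplicates with SAMtools 0.1.19-444, and counted reads with HTSeq in union mode, without normalization. Duplicate removal can cap the most abundant genes, and without molecular identifiers read counts are not counts of molecules. The authors' tables of comparisons (DESeq2 1.4.5 means, fold changes and p-values) were not used.

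Groups followed the sample titles. Counts were fitted with edgeR 4.0.16 (R 4.3.3; TMM, filterByExpr, two-sided quasi-likelihood F-test) over all genes of the 2 groups compared, with Benjamini-Hochberg FDRs. The threshold was 0.05, and 0.1 for cKO against WT in the IP, as in the study. SEs were derived from the F statistic. CPM used TMM factors over all 15 libraries. Lengths and positions came from GENCODE M21 (82.2% of features with a count had a length) and promoters from RefSeq. No pair of libraries agreed within sampling noise (chi-square per gene of at least 12.6 within groups). Scripts were tested on simulated data.

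Values in every library were given for called members, up to 10 per direction and comparison, and for the most abundant member of each class. The members, classes, markers and wider list were chosen with earlier results of these data known. The alternatives were DESeq2 1.42.0, other scalings and filters, all groups in one fit, a length trend removed, a replicate block, other thresholds and each library left out. Proteins and single exons were not analysed here.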

Additional observations from a re-analysis of the deposited data

How the results depend on the processing

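Of 102 calls of a member in a comparison, 52 held under every alternative, 50 were lost under at least 1, and 0 changed direction. The WT and cKO IP and the WT region comparisons kept their counts of called members within 1.5 times under all settings (14 to 22, 19 to 29 and 18 to 24 with 1 library left out). For cKO vDG against dDG (19), all groups in one fit gave 12, and leaving out 1 library gave 10 to 22 (10 without cKO dDG input replicate 2). For cKO against WT in the vDG IP (2), 10 counts in every library, the length trend or library size alone gave 4, all groups in one fit 7, DESeq2 or no count filter 8, an FDR of 0.05 gave 0, and leaving out 1 library 0 to 5 (0 without WT replicate 2 or either cKO library). For the vDG input (10), no filter gave 16, an FDR of 0.1 gave 17, and leaving out 1 library 1 to 15 (1 and 3 without cKO replicate 1 and 2). For the dDG input (0), DESeq2 gave 1, no filter 3, and leaving out 1 library 0 to 2. For genotype by region (0), DESeq2 gave 10, no filter 9, an FDR of 0.1 gave 2, and leaving out 1 library 0 to 3. Genotype by fraction stayed at 0 in all. The causes were not tested. Where 1 cKO library remains, it was assumed to vary like the libraries of the other groups in the fit.

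Replicate numbers were not taken to pair the samples: same-numbered WT IP and input libraries deviated together with r = 0.464, -0.165 and -0.329, and WT vDG and dDG inputs with r = 0.384, -0.111 and 0.219. In cKO, where 2 libraries per group give a single r, it was 0.441 for IP and input and 0.158 for vDG and dDG inputs. The block follows the sample titles. The count tables of the cKO dDG inputs carry the numbers 2 and 3 where the titles have 1 and 2, and a block on those was not run. With a replicate block, 18, 34, 28 and 25 members were called in the WT and cKO IP and the WT and cKO region comparisons, 2, 12 and 2 in cKO against WT (vDG IP, vDG input and dDG input), 2 in genotype by region and 0 in genotype by fraction. With the block and the length trend removed, the vDG IP gave 5, the dDG input 3 and genotype by region 2. In WT, not every library correlated best with the library of its own number (WT vDG IP replicate 3 with WT vDG input replicate 2, r = 0.612). Depth limits *Rims3*, *Syt2* and *Slc17a6*, which had few counts per library.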
